A study of Rattus norvegicus with 3 samples.

Results

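The parotid and sublingual glands of the rat were compared across all genes, using 1 array of each of these glands. These are 2 of the 3 arrays of the study, chosen by the gland named in their titles. Every array carried total RNA, labelled with Cy3 from 500 ng, of the gland of male Wistar rats 10 weeks old, with no treatment named, and the design text speaks of 3 rats without saying how they were spread over the arrays. The third array has the submandibular label. It is called submandibular-labelled here, because products of the submandibular granular ducts did not stand out on it: Egf, an epidermal growth factor stored there, was at 2.02 on that array, 2.62 on the parotid array and 1.61 on the sublingual array.

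Salivary acini come in a serous and a mucous form. Serous cells, which make up most of the rat parotid, release a watery fluid rich in amylase, proline-rich proteins and other enzymes. Mucous cells, the main cells of the rat sublingual gland, store heavily O-glycosylated gel-forming mucin, and serous cells sit on their ends as demilunes. Both forms pour their product through ducts lined by keratin-rich epithelium, and contractile myoepithelial cells surround them.

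Levels are log2 signals relative to the 75th percentile of each array, so that 0 is a bright but ordinary probe. A difference is the sublingual level minus the parotid level. When a gene was not well above background in the gland with less of it, only a lower bound of its fold under this processing is known, written "at least". A gene well above background in only 1 gland was compared only when higher there, so the filter fixed its direction. A gene whose fold is 4 or more is called parotid-high or sublingual-high after the gland with more of it. With 1 array per gland there are no replicates and no test, the number of arrays limits the precision, and values describe these arrays only. Spots of 1 probe had a median SD of 0.09 on either array, an error that covers neither animals nor labelling. Signal well above background was seen for 10507 of 16289 probed genes (64.5%) in the parotid and for 10398 (63.8%) in the sublingual gland. No spot was saturated.

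Sequences upstream of the gene starts are shown for some of the products that differ most. They are the 100 bases before the RefSeq start in assembly GRCr8, 5′ to 3′ on the gene's strand, and capitals mark TATAA, the core of the TATA box, where it lies within 60 bases of the start. The genes were chosen after their sequences had been seen: 6 are parotid products and the last 3 carry the largest folds on the sublingual side.
Prp25l1 (chr4:167469018-167469117, plus strand): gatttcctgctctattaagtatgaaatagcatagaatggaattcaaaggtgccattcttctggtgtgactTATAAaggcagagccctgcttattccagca
Prp2 (chr4:167331391-167331490, plus strand): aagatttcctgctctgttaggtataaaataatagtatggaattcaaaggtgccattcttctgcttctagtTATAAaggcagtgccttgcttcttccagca
Prb3 (chr4:167295734-167295833, plus strand): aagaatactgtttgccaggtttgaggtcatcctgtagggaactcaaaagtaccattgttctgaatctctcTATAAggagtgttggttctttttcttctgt
Obp2b (chr3:28980086-28980185, plus strand): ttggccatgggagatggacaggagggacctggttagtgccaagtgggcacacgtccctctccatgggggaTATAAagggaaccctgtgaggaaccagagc
Pip (chr4:71754165-71754264, plus strand): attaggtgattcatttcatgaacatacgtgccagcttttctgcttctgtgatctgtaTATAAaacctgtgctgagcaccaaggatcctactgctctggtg
Smr3a (chr14:20338821-20338920, minus strand): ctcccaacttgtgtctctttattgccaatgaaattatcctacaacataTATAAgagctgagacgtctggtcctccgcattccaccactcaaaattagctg
Muc19 (chr7:124897324-124897423, plus strand): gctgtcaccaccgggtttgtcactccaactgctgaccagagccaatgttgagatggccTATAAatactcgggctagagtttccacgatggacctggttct
Agr2 (chr6:58435808-58435907, plus strand): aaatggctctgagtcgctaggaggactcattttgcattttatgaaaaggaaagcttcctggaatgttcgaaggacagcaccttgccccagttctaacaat
Bglap (chr2:176137319-176137418, minus strand): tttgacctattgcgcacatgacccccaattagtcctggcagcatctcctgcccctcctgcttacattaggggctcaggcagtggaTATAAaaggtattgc

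In Prp25l1, Prp2, Prb3 and Obp2b the capital letters begin 30 bases before the start. They begin 43 bases before it in Pip, 52 in Smr3a, 42 in Muc19 and 15 in Bglap, and Agr2 has none in this window. The proline-rich protein genes Prp25l1 and Prp2 share 86 of 100 aligned bases, Prp2 and Prb3 share 69, and Prp25l1 and Prb3 share 65. For comparison, Prp2 shares 61 with Pip and 55 with Obp2b, which belong to other families.

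The TATAA letters, read on the gene's strand only, lay within 60 bases of an annotated start in 398 of 8878 compared genes with a promoter sequence (4.48%). They did in 38 of 244 parotid-high genes (15.6%) and in 21 of 263 sublingual-high genes (7.98%). Of the 40 largest folds per direction, 12 of 32 parotid-high genes with a sequence (37.5%) and 5 of 35 sublingual-high genes (14.3%) had them. Base composition moved with this: the median GC content of the 250 bases before the start was 59.6% over all compared genes. It was 55.6% for the parotid set and 58.8% for the sublingual set. For the 40 largest folds it was 43.8% on the parotid side and 53.5% on the sublingual side. The part of base composition in the shares was not tested. CAGCTG, an E-box whose letters are the same on both strands, lay in these 250 bases in 12.5% of all compared genes, 11.5% of the parotid set and 14.1% of the sublingual set. AACAAT, a core bound by SOX factors, lay there on either strand in 5.73% of all, 13.5% of the parotid set and 8.37% of the sublingual set. These matches describe letters and show no binding.

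Across the 11019 genes that could be compared, 332 were sublingual-high (3.01%) and 314 parotid-high (2.85%), 5.86% in all. For 82 of the former and 111 of the latter the fold is a lower bound. At 2-fold the shares were 12.4% and 12.2%, together 24.7%. The largest sizes lay on the parotid side, with 122 genes past 10-fold there against 96 on the sublingual side, and 26 against 15 past 100-fold. Most genes were close: 7644 of the 9822 genes measured on both arrays (77.8%) differed by under 2-fold, and the median difference was 0.08. The share of the 4-fold genes that were higher on the sublingual array was 51.4%, and it depended on scaling and background. It was 64.7% with centring on each array's median, which raised the median difference to 0.33, 61.4% with normexp background correction, and 39.9% with no bound and all probes.

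**Figure D1:**
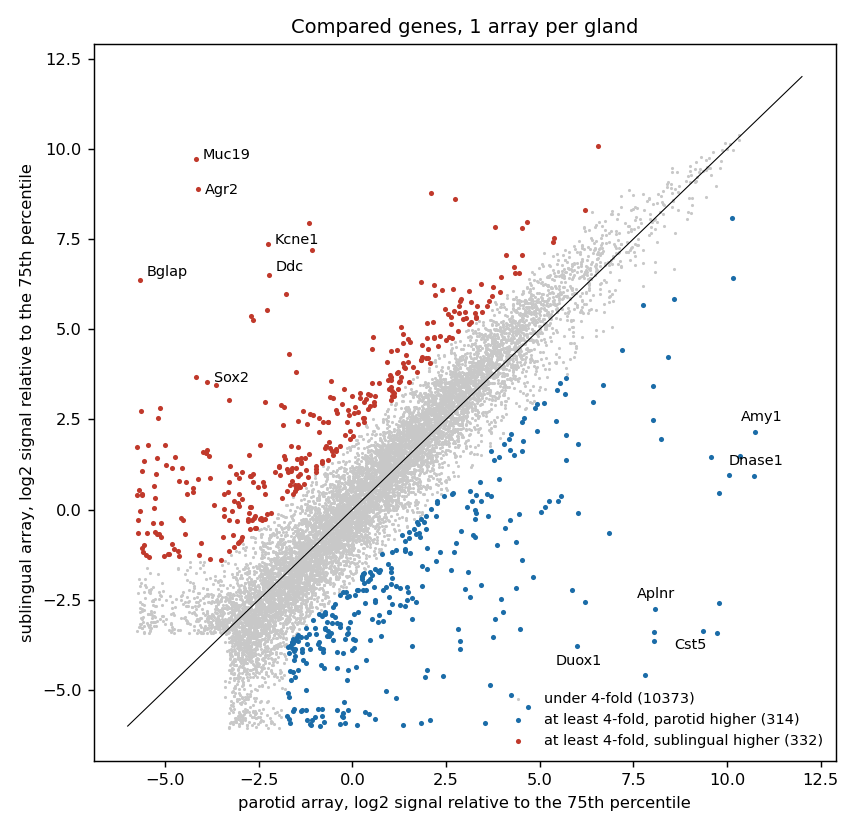
Each point is 1 of the 11019 compared genes, with its log2 signal relative to the array's 75th percentile on the parotid array (x axis) and the sublingual array (y axis); the line marks equal levels. The 332 red genes are sublingual-high and the 314 blue genes parotid-high by 4-fold, with levels below background replaced for the fold by a bound but drawn as measured.

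The labels were first set beside markers of the acinar cells. These lists were chosen with earlier results of these data known, so they do not check the labels independently. The parotid array held signal well above background for all 8 serous acinar markers with a probe, and the sublingual array for 7 of them. Their summed signal was 12.63 on the log2 scale on the parotid array and 7.47 on the sublingual array. Of 9 mucous acinar markers, 3 were detected that way in the parotid and 6 in the sublingual gland, with summed levels of 4.73 and 10.75. The serous markers together were thus higher on the parotid array and the mucous markers higher on the sublingual array, although both marker lists had an exception. Aqp5, the water channel of the acinar apical membrane, was at 5.92 on the parotid array and 7.29 on the sublingual array, 2.58-fold higher on the latter. Muc5b, a gel-forming mucin, was not well above background on the sublingual array and was at -1.20 on the parotid array, a fold of at least 5.72. In whole glands, fewer cells of a type and less RNA per cell cannot be told apart.

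By list medians, amylases lay farthest toward the parotid among the function groups. All 3 amylase genes compared were higher there, with a median difference of -9.08 beside 0.06 over all compared genes. Amy1, the salivary amylase that cuts starch, was at 10.76 on the parotid array and 2.15 on the sublingual array, 391-fold apart. Amy2a3, a pancreatic-type amylase, was at 7.80 and not well above background on the sublingual array, a fold of at least 2968 toward the parotid. Amylase genes are close copies, and their probes may share signal. Cst5, a cysteine protease inhibitor that the array annotation calls cystatin 10, was at 9.74 on the parotid array and not well above background on the sublingual array, at least 9148-fold apart. The other 4 cystatins compared were within 4-fold, among them Cst3 at 6.36 on the parotid array and 5.55 on the sublingual array.

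Proline-rich proteins, which bind tannins and coat the tooth surface, were all higher on the parotid array: 9 of 9 compared, 6 of them at least 4-fold, with a median difference of -5.82. Prp25l1 was at 9.35 on the parotid and -3.35 on the sublingual array (6641-fold), and Prp2 at 8.04 and -3.64 (3280-fold). Prb3 was at 9.78 and 0.46, 642-fold apart. Prpmp5 was at 8.02 on the parotid array and 3.42 on the sublingual array, a 24.3-fold difference. Some of these genes resemble one another, so their probes may share signal. Smr3a, a submaxillary-gland androgen-regulated peptide precursor, was at 9.78 on the parotid array and -2.58 on the sublingual array (5254-fold). Oprpn, which the array annotation lists as a mucin, was 220-fold higher on the parotid array, at 4.47 against -3.31.

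Lipocalins, small carriers of odorants and other hydrophobic molecules, were a second family on the parotid side. Of 10 compared, 7 were parotid-high and none was sublingual-high, with a median difference of -5.09. Over all 17 with a probe, with no bound, the median was -1.16. Obp2b, an odorant-binding protein, was at 4.69 on the parotid array and at least 344-fold above its sublingual signal. Lcn1, the tear lipocalin, was at 3.68 and at least 171-fold higher, and Vegp2, a von Ebner gland protein, was at 3.54 and at least 155-fold higher. The major urinary protein Mup5 was measured on both arrays, at 6.01 and -0.09 (68.7-fold), and its 3 probes gave differences from -6.47 to -5.58. Lcn2, which sequesters bacterial siderophores, was at 5.03 on the parotid and -0.06 on the sublingual array, 34.1-fold apart. Apod, an apolipoprotein of this fold, was the only one of the 10 higher on the sublingual array, with a difference of 1.45. Major urinary proteins resemble one another, so their probes may share signal.

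Of the nucleases, 4 of 10 compared were parotid-high and 1 sublingual-high, and the median difference was -0.94. Dnase1, which degrades DNA in saliva, was at 10.71 on the parotid array and 0.94 on the sublingual array, 875-fold apart. Dnase1 was not well above background on the submandibular-labelled array, so the sublingual level lay at least 24.0-fold above it. Rnase1, a pancreatic-type ribonuclease, was at 5.70 and 1.37 (20.2-fold), and its neighbour Rnase1l1 at 3.63 and -0.17 (13.9-fold). Dnase2b went the other way, at -0.18 on the sublingual array, at least 9.47-fold above its parotid signal. Among other secreted proteins, Pip, an aspartic protease-like protein of many exocrine fluids, was at 10.33 and 1.47, 464-fold higher on the parotid array. Agt, the precursor of angiotensin, was at 6.22 and -2.57 (443-fold), and Crisp3, a cysteine-rich secretory protein, at 9.57 and 1.46 (275-fold).

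Sublingual array levels of some serous products stood above those of the submandibular-labelled array. Crisp3 was at 1.46 on the sublingual and -1.46 on the submandibular-labelled array, 7.59-fold apart, and Amy1 was at 2.15 and 0.88. Prb3 and Pip did not show this order: Prb3 was at 0.46 on the sublingual and 1.21 on the submandibular-labelled array, and Pip at 1.47 and 1.62.

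**Figure D2:**
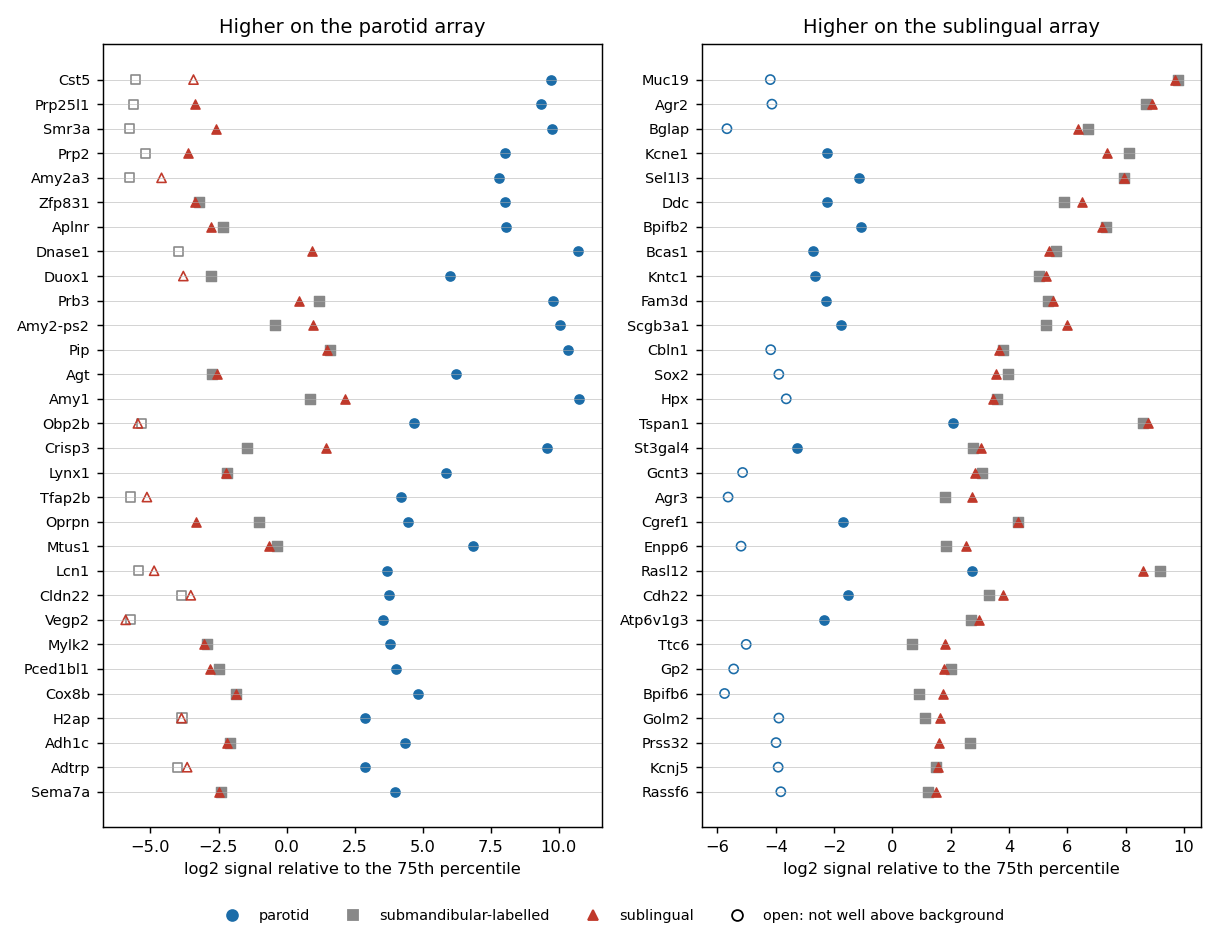
Log2 signal relative to the 75th percentile (x axis) of the 30 leading genes of either direction by fold, on the parotid (circles), submandibular-labelled (squares) and sublingual (triangles) arrays; open symbols were not well above background. Cst5 and Prp25l1 lead the parotid side at 9.74 and 9.35, Muc19 and Agr2 lead the sublingual side at 9.71 and 8.89, and the squares lie near the triangles for most genes.

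Muc19 and Agr2, genes of mucus production, had the largest folds on the sublingual side, but mucins as a list were split. Of 7 gel-forming and membrane mucins compared, 2 were sublingual-high and 2 parotid-high. Of the 7, 4 were higher on the parotid array, and the median was -0.68. Muc19, the main gel-forming mucin of rodent sublingual glands, was at 9.71 on the sublingual array and not well above background on the parotid array, at least 9041-fold apart. Agr2, a disulfide isomerase needed for mucin folding, was at 8.89 and at least 5141-fold higher. Of 16 genes compared in the mucous cell list, 10 were sublingual-high and 1 parotid-high. The median difference was 4.05, or 2.46 over all 21 with a probe and no bound. This list was chosen with earlier results of these data known. It includes Bglap, Kcne1 and Bcas1, which are among the largest sublingual folds, so its count and median are no independent support. Agr3, the neighbour and relative of Agr2, was at 2.74 and at least 72.2-fold higher. Gp2, a glycoprotein of secretory granule membranes, was at least 37.1-fold higher and Itln1, an intelectin that binds microbial sugars, at least 18.6-fold higher. Zg16b, a lectin-like secreted protein, was at 2.91 against -1.91 (28.2-fold). Its relative Zg16 was the exception, at -0.55 on the parotid and -2.93 on the sublingual array, 5.19-fold higher on the parotid array. Bglap, which encodes the bone matrix protein osteocalcin, was at 6.36 on the sublingual array, at least 891-fold above the parotid array.

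The sugar chains of mucins are begun by GALNT enzymes, branched by GCNT enzymes and capped by sialic acid, fucose or sulfate. Of 20 initiating and core enzymes compared, 4 were sublingual-high and 2 parotid-high, with a median difference of 1.09. Gcnt3, which makes mucin-type branches, was at 2.82 on the sublingual array, at least 76.2-fold above the parotid array. Galnt7 was at 1.03 against -2.95 (15.8-fold), and Galnt5, at 0.98, was at least 17.1-fold higher. B4galt1, a galactosyltransferase, was at 2.41 against -0.80 (9.26-fold). Gcnt1, which makes the core branch in many tissues, lay the other way, at 3.27 on the parotid and 0.00 on the sublingual array (9.68-fold). C1galt1, which extends the first sugar to core structures, was at 0.47 on the parotid array and -1.74 on the sublingual array, 4.60-fold apart.

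Of 14 compared genes of sialic acid synthesis, transport and transfer, 7 were sublingual-high and none was parotid-high. The other 7 stayed under 4-fold, 2 of them higher on the sublingual and 5 on the parotid array, with differences from -1.93 (St3gal6) to 1.31 (St3gal3). Gne, which starts sialic acid synthesis, was at 7.07 on the sublingual array and 4.52 on the parotid array (5.85-fold). Nans, the next synthase of that route, was at 5.17 against 1.98 (9.13-fold). Slc35a1, which carries CMP-sialic acid into the Golgi, was at 4.40 against 1.02 (10.4-fold). Among the transferases, St3gal4 was at 3.04 against -3.28 (79.8-fold), St6gal1 at 4.61 against 1.36 (9.54-fold) and St3gal5 at 3.39 against 1.03 (5.13-fold). St3gal1, at 1.08, was at least 22.9-fold above its parotid level. Fut2, the secretor fucosyltransferase, was higher on the parotid array, at 0.57 against -2.15 (6.58-fold). Over the 24 capping genes compared, 7 were sublingual-high and 1 parotid-high. Their median difference was 0.42, but -0.30 with no bound and all probes, so the direction of the whole list depends on that setting.

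Genes of the endoplasmic reticulum and its export coats were mostly a little higher on the sublingual array, 48 of 71 compared. The median difference was 0.37, or 0.14 with quantile normalization. Of these genes 4 were sublingual-high and none was parotid-high. Sel1l3 was at 7.94 against -1.15, 546-fold apart, although its 3 probes ran from 2.70 to 9.09. Sec23b, an inner coat protein of vesicles leaving the reticulum, was at 5.43 against 2.55 (7.34-fold), and Sar1a, the GTPase that starts that coat, at 5.35 against 3.30 (4.14-fold). Preb, the exchange factor that loads SAR1 with GTP and is outside that list, was at 3.59 against 0.95 (6.24-fold). Pdia5, a disulfide isomerase, was at 3.50 against 0.70 (6.99-fold).

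For granule release, the differences ran the other way in a few genes of 50 compared, with a median of 0.33. Rab26, a small GTPase of secretory granules, was at 5.11 on the parotid and 2.96 on the sublingual array (4.43-fold). Rims1, a scaffold of release sites, was at -0.93 on the parotid array and at least 7.004-fold higher there, and Rab3b at -1.66 and at least 4.22-fold higher. Mlph, melanophilin, which links RAB27 to myosin, was higher on the sublingual array, at 4.70 against 2.50 (4.60-fold).

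Proteins of the BPI fold, a family of lipid-binding proteins of saliva and airways, differed in both directions. Of 9 compared, 3 were sublingual-high and 3 parotid-high, and the median difference was -0.81, or -0.06 with the median of each gene's probes. Bpifb2 was at 7.19 on the sublingual array against -1.09 (310-fold), and Bpifa2f at 10.07 against 6.56 (11.5-fold). Bpifb6, at 1.72, was at least 35.7-fold above its parotid level. Bpifa2, the parotid secretory protein, was at 10.16 on the parotid and 6.41 on the sublingual array (13.5-fold), and Bpifb4 at -0.13 and -3.28 (8.88-fold). Most of these genes stand in 1 row on chromosome 3 of rn4, the build of the array files. Bpifb2 has its probe at 144273504 to 144273563 and Bpifb6 at 144295486 to 144296249, both higher on the sublingual array. Bpifb4, at 144345181 to 144345240, and Bpifa2, at 144403378 to 144403437, were higher on the parotid array. Bpifa2f, next at 144431183 to 144433379, was higher on the sublingual array again. Beyond it, Bpifa1 and Bpifa5 differed by 1.87-fold and 1.03-fold.

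Of 4 secretoglobins compared, 2 were sublingual-high, as were 2 of 4 FAM3 genes, which encode cytokine-like proteins, and none was parotid-high. Scgb3a1, a secretoglobin of airway epithelium, was at 5.98 on the sublingual array against -1.76 (214-fold), and Scgb1c1 at 4.72 against 1.49 (9.39-fold). Fam3d was at 5.52 against -2.27 (221-fold) and Fam3b at 4.86 against 1.35 (11.4-fold). Over the list of 22 other secreted proteins that holds them, 5 were sublingual-high and 6 parotid-high, 14 were higher on the parotid array by any amount, and the median was -0.71.

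Among genes of innate defence and oxidases, 11 of 30 compared were parotid-high and 2 sublingual-high, with a median difference of -1.12. Duox1, which makes hydrogen peroxide at the apical membrane, was at 5.9995 on the parotid array, a level at least 853-fold above that of the sublingual array, and Lpo, the peroxidase that uses it, was at 5.56 and 0.39 (36.1-fold). Duox2, the close relative, was the reverse, at -0.24 on the sublingual array, at least 9.13-fold above the parotid signal. Dmbt1, a bacteria-binding scavenger glycoprotein, was at 5.50 against 0.23 (38.5-fold). Slpi, an antileukoproteinase, was at 3.41 against 0.76 (6.29-fold). Cfi, a complement regulator, was 8.30-fold higher on the parotid array. Cd14, the endotoxin co-receptor, was at 4.42 on the sublingual array against 1.19 (9.34-fold).

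Protease inhibitors split. Of 29 compared, 4 were sublingual-high and 3 parotid-high, around a median of -0.26. Mug1, a broad inhibitor of the macroglobulin family, was at 5.06 on the sublingual array against 1.30 (13.6-fold), and Serpina1, antitrypsin, at 3.74 against 0.99 (6.72-fold). Spink5, at 0.04, was at least 11.1-fold above its parotid level. Serpini1, neuroserpin, was at 0.82 on the parotid array against -3.09 (15.1-fold), and Serpina3n at 0.03 against -2.90 (7.65-fold). Tissue kallikreins stayed within 4-fold: all 6 compared were higher on the parotid array but none by 4-fold, and Klk1c8 was at 6.244 on the parotid and 5.999 on the sublingual array. Differences as small as -0.17 among them depend on the scaling: centring on each array's median moved their median from -0.43 to -0.18.

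**Figure D3:**
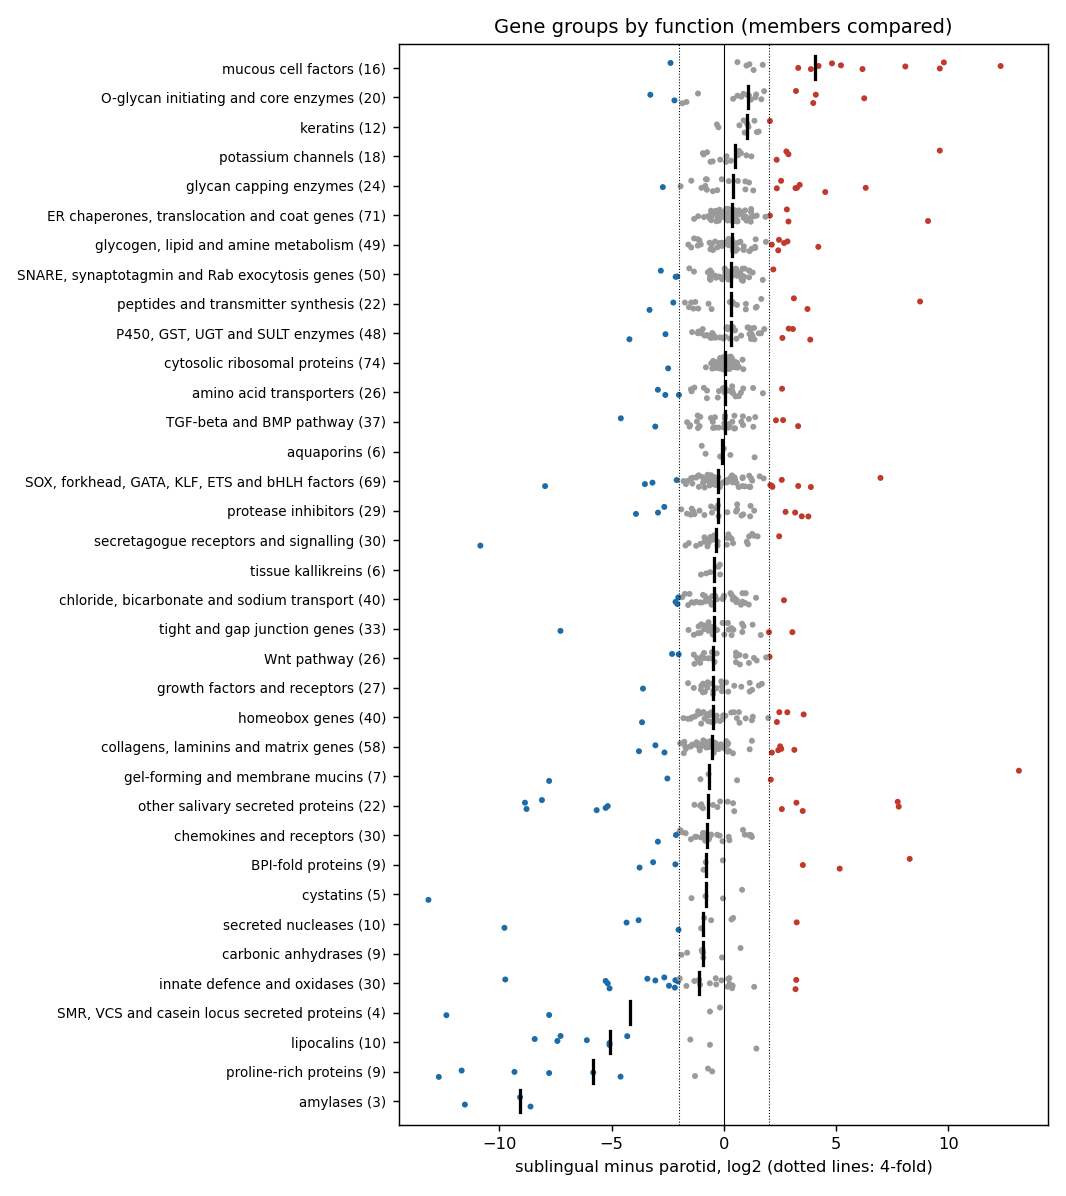
Difference sublingual minus parotid on the log2 scale (x axis) for the compared members of 36 gene groups (rows, with the number compared); each point is a gene, black bars are medians, and dotted lines mark 4-fold. The mucous cell list has a median of 4.05 and amylases of -9.08, while cytosolic ribosomal proteins sit around 0.07. Bounded folds are drawn at their bound.

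The share of fluid and ion transport genes past 4-fold varied by list. Of 18 potassium channel genes compared, 4 were sublingual-high and none was parotid-high, beside 3.01% and 2.85% of all compared genes. Kcne1, an accessory subunit of KCNQ1 channels, was at 7.36 against -2.26 (786-fold). The 2-pore channels Kcnk1 and Kcnk6 were 7.33-fold and 5.11-fold higher, and Kcne3 was at 3.20 against 0.42 (6.89-fold). The list's median of 0.47 turned to -0.31 with no bound and all probes. Over all 32 compared potassium channel genes of the array, 26 stayed under 4-fold, 7 of them higher on the sublingual and 19 on the parotid array. The others were 5 sublingual-high genes and 1 parotid-high gene. Outside the list these were Kcnj5, an inward rectifier, at 1.56 on the sublingual array, at least 32.0-fold above the parotid array, and Kcnh3, a voltage-gated channel, at 0.33 on the parotid array on an uneven spot and at least 16.8-fold above the sublingual array. Of 40 chloride, bicarbonate and sodium transport genes, 1 was sublingual-high and 3 were parotid-high, around a median of -0.43. Trpv6, a calcium channel, was 6.397-fold higher on the sublingual array. Slc4a8 and Slc4a11, of the bicarbonate transporter family, were 4.44-fold and 4.20-fold higher on the parotid array, and Fxyd1, a regulator of the sodium pump, 4.09-fold. No aquaporin (6 compared) and no carbonic anhydrase with a matched probe (9 compared) differed by 4-fold. Car2, a cytosolic carbonic anhydrase, came closest, at 4.02 on the parotid and 2.13 on the sublingual array (3.70-fold). The aquaporin median of -0.08 became 0.16 with median centring.

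Among receptors and signalling genes for the stimuli of secretion, 1 of 30 compared passed 4-fold in each direction, near the 3.01% and 2.85% of all compared genes, and the median was -0.36. Chrm3, the muscarinic receptor that drives salivation, was at 4.80 on the sublingual array against 2.34 (5.51-fold). Aplnr, the apelin receptor, was at 8.08 on the parotid array against -2.76 (1840-fold). Nerve peptides and transmitter enzymes had 3 of 22 genes sublingual-high and 2 parotid-high. Ddc, which decarboxylates aromatic amino acids, was at 6.51 on the sublingual array against -2.23 (427-fold). Vip, a vasodilator peptide of parasympathetic nerves, was at 0.10 on the sublingual array, at least 8.69-fold above the parotid array. Vip was also at least 13.4-fold higher there than on the submandibular-labelled array. Of 6 parasympathetic neuron markers compared, only Vip passed 4-fold. Of these markers 4 were higher on the parotid array, and their median of -0.11 changed sign under 2 settings. Schwann cell and axon markers were higher on the parotid array in 5 of 9, with a median of -0.47. Npy, the sympathetic neuropeptide, was at 3.13 against -0.60 (13.2-fold). The brighter spots of Ddc and Npy were uneven, with a pixel SD of 0.244 and 0.248 of the mean, above the value that the most uneven 1% of spots on the array exceed (0.236). Penk, proenkephalin, was at -0.15 on the parotid array, at least 9.93-fold above its sublingual level. The median of 0.32 of the 22 nerve peptide and transmitter genes turned negative with normexp correction and with no bound.

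Some transcription factors differed by more than 100-fold. Of 69 SOX, forkhead, GATA, KLF, ETS and bHLH factors compared, 7 were sublingual-high and 4 parotid-high, and the median was -0.24. Sox2, a factor of epithelial progenitors, was at 3.54 on the sublingual array, at least 126-fold above the parotid array. Spdef, which drives mucous cell maturation, was measured in both glands, at 7.98 on the sublingual and 4.67 on the parotid array (9.93-fold). Foxa3, at 0.44, was at least 14.7-fold above its parotid level, Foxa1 at least 4.48-fold, and Klf4 was at 3.80 against 1.23 (5.98-fold). Gata3 was 4.39-fold higher on the sublingual array on an uneven spot. Tfap2b, an AP-2 factor, was at 4.23 on the parotid array, at least 249-fold above the sublingual array. Ascl2 was at 3.26 on the parotid array against -0.26 (11.4-fold), and Foxc1 at 3.42 against 0.24 (9.06-fold). Sox10, known from acinar and neural crest cells, was at 4.51 on the parotid array and 2.41 on the sublingual array, 4.29-fold apart.

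Homeobox and T-box genes differed at low levels. Meis2 was at 1.99 on the parotid array against -1.65 (12.5-fold). Nkx2-3, at 0.12 on the sublingual array, was at least 11.7-fold higher, Isl2 at least 7.09-fold, and Tbx1 at least 5.14-fold. Tbx3 was at -0.71 against -3.18 (5.54-fold). Over the 40 compared, 4 were sublingual-high and 1 parotid-high, while 26 were higher on the parotid array by any amount and the median was -0.49.

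Signals of growth and patterning moved singly. Gdf5, a BMP-type ligand of joints, was at 4.08 on the parotid array against -0.51 (24.1-fold), and Gdf10 at 0.90 against -2.15 (8.32-fold). Inha, the inhibin subunit, was at 1.48 on the sublingual array against -1.82 (9.90-fold). Id4 and Bambi, both antagonists in the BMP route or downstream of it, were 6.23-fold and 4.99-fold higher on the sublingual array. The median of the 37 genes of that pathway, 0.03, turned to -0.31 with no bound. Fgf2 was at 0.01 on the parotid array and exceeded its sublingual level at least 12.1-fold, the only one of 27 growth factors and receptors past 4-fold. In the Wnt list of 26, Sfrp5, a secreted antagonist, was 4.95-fold higher on the parotid array and Wnt4 4.09-fold higher on the sublingual array. Wnt9b, outside that list, was at 1.42 on the sublingual array, at least 28.9-fold above the parotid array.

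Genes of epithelial structure passed 4-fold in both directions. Of 33 tight and gap junction genes compared, 2 were sublingual-high and 1 parotid-high, beside 3.01% and 2.85% of all compared genes. Of the 33, 19 were higher on the parotid array, and the median was -0.45. Cldn22, a tight junction protein, was at 3.76 on the parotid array, at least 155-fold above the sublingual array. Cldn10, which forms ion-selective pores, was at 5.21 on the sublingual array against 2.16 (8.29-fold), and Cldn4 at 5.13 against 3.12 (4.02-fold). Of 12 keratins compared, 10 were higher on the sublingual array and the median was 1.05, but only Krt15, at 3.153 against 1.101, passed 4-fold (4.15-fold). Of 58 matrix genes, 5 were sublingual-high and 3 parotid-high. By any amount, 42 were higher on the parotid array, with a median of -0.54. Lamb3 was at 3.14 on the sublingual array against 0.00 on the parotid array (8.81-fold), and Lama5, another laminin chain of basement membranes, at 2.88 against 0.46 (5.36-fold). Postn, periostin, was at 0.05 on the parotid array, at least 13.8-fold above the sublingual array, and Spp1, osteopontin, was at 0.83 against -2.22 (8.27-fold).

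In metabolism, 6 of 49 genes compared were sublingual-high and none was parotid-high, with a median of 0.36. Arg2, the mitochondrial arginase, was at 2.36 against -1.85 (18.5-fold). Pck2, mitochondrial PEP carboxykinase, was at 6.26 against 3.43 (7.13-fold), Elovl7, a fatty acid elongase, at 5.32 against 2.64 (6.42-fold), and Ugp2, which makes UDP-glucose, at 5.47 against 3.01 (5.49-fold). Detoxifying enzymes went both ways. Cyp4f6, a fatty acid hydroxylase, was at 8.42 on the parotid array against 4.22 (18.5-fold). Mgst2 was at 5.77 on the sublingual array against 2.88 (7.40-fold), and Cyp2a3, at 0.41, was at least 14.4-fold higher. Slc1a5, the glutamine transporter, was at 5.44 on the sublingual array against 2.85 (6.03-fold), while Slc1a2, a glutamate transporter, was at 0.37 on the parotid array against -2.23 (6.09-fold). Of 74 cytosolic ribosomal proteins, 1 passed 4-fold, Rps7 (5.59-fold toward the parotid), and the median was 0.07.

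Several genes with very large folds belong to none of these groups. On the parotid array, Zfp831, a zinc finger protein, was at 8.05 against -3.38 (2758-fold), and Lynx1, a modulator of nicotinic receptors, at 5.86 against -2.23 (273-fold). Bcan, a proteoglycan known from brain matrix, was at 8.24 against 1.96 (77.7-fold). Zfp831 has 2 probes and Bcan 3, but only 1 probe of each could be compared. Mylk2, the skeletal muscle myosin light chain kinase, was 115-fold higher and Adh1c, an alcohol dehydrogenase, 92.9-fold. Mtus1 and Cox8b were 179-fold and 103-fold higher by their brightest probe, but their other probes reached -0.61 and 0.45, and with the median of their probes neither passed 4-fold. On the sublingual array, Tspan1, a tetraspanin, was at 8.76 against 2.09 (102-fold), and Cgref1 at 4.30 against -1.70 (63.7-fold). Hpx, hemopexin, which binds free haem, was at 3.46 and at least 119-fold higher, and Cbln1, a synaptic organiser, was at 3.67 and at least 138-fold higher. Rasl12 and Cdh22, at 58.8-fold and 39.99-fold by their brightest probe, each had a probe near no difference (0.24 and -0.51). The olfactory receptors Or4a66b and Or2aj4 were at least 24.0-fold and 23.8-fold higher, each on an uneven spot.

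Some of the genes at least 4-fold apart were neighbours. Of 632 such genes with coordinates, 80 (12.7%) lay within 100 kb of another that differed in the same direction. They were 50 of 305 on the parotid side and 30 of 327 on the sublingual side. No share over all compared genes stands beside these counts, so they do not show whether genes at least 4-fold apart cluster. The largest run was Prb1, Prpmp5, Prb3 and Prp2 on chromosome 4 from 169556030 to 169648423 (rn4), all 4 of the genes compared there. Lcnl, Vegp2 and Lcn1 lay on chromosome 3 from 4829554 to 4881913, Rnase1l1, Rnase1 and Rnase1l2 on chromosome 15 from 27099769 to 27184764, and Obp3, Mup4l4 and Mup4 on chromosome 5 from 78090663 to 78217978. These 3 runs are families of like sequence. Akap5, Hspa2 and Ppp1r36 on chromosome 6, from 98928387 to 99028298, are unrelated to one another: Akap5 was at least 52.7-fold, Hspa2 at least 7.38-fold and Ppp1r36 11.6-fold higher on the parotid array. On the sublingual side, Sectm1b and Sectm1a on chromosome 10 were 12.7-fold and 4.63-fold higher, and Ppa1, a pyrophosphatase, lay beside Sar1a on chromosome 20 and was 7.72-fold higher.

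Markers of the non-acinar cells differed by smaller steps and in both directions. Most of those of endothelium, connective tissue and leukocytes were higher on the parotid array: 11 of 12 endothelial (median difference -1.04), 9 of 10 fibroblast (-0.95), 7 of 7 adipocyte (-0.95), 13 of 14 macrophage and dendritic cell (-0.87), 9 of 9 T and NK cell (-1.15), 4 of 4 B and plasma cell (-1.33) and 4 of 4 mast cell (-0.98). Markers detected on the parotid array only could count only toward it. The parotid and sublingual arrays held signal well above background for 12 and 9 endothelial and 14 and 11 macrophage and dendritic cell markers. They did for 10 and 9 fibroblast, 7 and 6 adipocyte, 9 and 6 T and NK cell, and 4 and 3 mast cell markers. B and plasma cell markers were even, 4 and 4. Summed levels on the parotid and sublingual arrays were 4.93 and 4.29 for the endothelial list, 7.72 and 6.41 for fibroblasts and 7.31 and 6.38 for macrophages and dendritic cells. The pericyte and vascular smooth muscle list was mixed, with 5 of 8 higher on the parotid array, a median of -0.46 and summed levels of 7.16 on the parotid and 7.71 on the sublingual array. Jchain, the joining chain of secreted IgA, was at 3.32 and 1.54, and Cd8a was not well above background on the sublingual array. Dividing cell genes were higher on the parotid array in 14 of 16, with a median of -0.88 and no member past 4-fold. The part of these cells in the differences of Postn, Cxcl9 (a fold of at least 7.67 toward the parotid), Cxcl10 (4.39) and the matrix genes was not tested.

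Myoepithelial and basal markers stood on the sublingual side, 7 of 8 compared, with a median difference of 1.37 and summed levels of 4.81 on the parotid and 6.08 on the sublingual array. Cnn1, a smooth muscle calponin of contractile cells, was at 1.54 against -1.16 (6.48-fold). Krt5 was at 4.70 against 3.15 and Tp63, a basal cell factor, at 2.56 against 1.30. Skeletal muscle markers were also higher there in 5 of 8, with low summed levels of 2.09 and 2.47: Acta1 was at 0.71 against -1.30 (4.03-fold), and Myh2 was at least 6.78-fold higher. Markers of intercalated and striated ducts were even, 6 higher in each direction, around a median of 0.05 that turned negative with the median of a gene's probes. Krt7 was at 7.15 on the sublingual array against 5.79, and Klk1, a duct kallikrein, at 7.37 against 7.54. Of the granular duct markers all 8 compared were higher on the parotid array, but only Smr3a passed 4-fold. The smallest of these differences was -0.17, and median centring moved the list's median from -0.86 to -0.61.

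**Figure D4:**
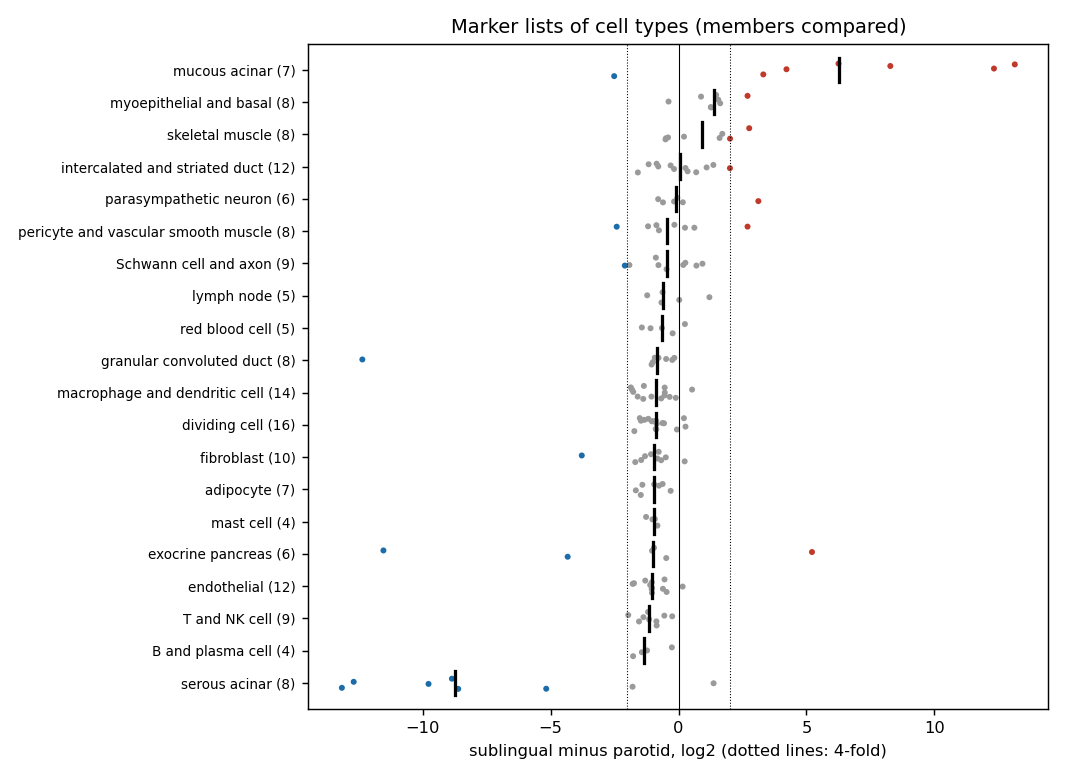
Difference sublingual minus parotid on the log2 scale (x axis) for the compared markers of 20 cell types (rows, with the number compared); each point is a gene, black bars are medians, and dotted lines mark 4-fold. Mucous acinar markers have a median of 6.25 and serous acinar markers of -8.74, and the endothelial, fibroblast and leukocyte lists lie between -1.33 and -0.87; bounded folds are drawn at their bound.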

How the data were processed

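RNA of the parotid, submandibular-labelled and sublingual glands was measured on 1 array each, grouped by the labels. The deposited intensity values were made, per the file headers, with Agilent Feature Extraction 10.1.1.1 (protocol GE1-v5_10_Apr08, design 014879, coordinates in rn4), and other deposited columns are 0 or 1 flags per spot. A deposited value table gives each spot as a linear ratio by the authors, whose steps no source used here states. Its columns are the processed signals over a constant of 190, 236 and 250 in the order above, with column medians of 0.152, 0.122 and 0.128, so its scale is settled and no gene was centred.

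Levels are log2 of the processed signal minus the 75th percentile of each array (signals of 186, 228 and 244). Control spots and outlier-flagged spots (68, 79 and 73) were not used, and repeat spots of a probe were averaged. A bound sets the bright level against the dim array's lowest probe well above background, or the dim probe itself where that is higher. Both-dim genes (5206) and bounds under 1 (64) have no fold. Of 41012 probes, 20882 were matched to RefSeq GRCr8 names, 11044 by accession and the rest by symbol, older symbol, identifier or description; 20130 were not. A gene is its probe with the highest mean level. Summed levels are log2 of summed linear signals over a list's probed members.

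Members and lists were chosen with earlier results of these data known. Named genes are the 40 largest folds per direction, up to 10 members per list (every marker in marker lists), the 10 largest groups of neighbours, and genes whose probes disagree. Preb, Plxnc1, Kcnh3, the counts by family name and the unmatched probes were chosen after their values were seen. Each gland had its own position on 1 slide, and the 2 cannot be told apart. Alternatives were median centring, quantile normalization, normexp (offset 50, limma 3.58.1, R 4.3.3), the deposited table, other bounds, probes, names and thresholds. Some list members are not reported here. The counting was tested on simulated data. Python 3.11.15, numpy 2.4.6, pandas 2.3.3 and matplotlib 3.10.9 were used.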

Additional observations from a re-analysis of the deposited data

How the results depend on the processing

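With 1 array per gland no replicate could be left out. No paired analysis was possible because each gland has 1 array and no labelled replicate number. Normexp correction gave 216 genes at least 4-fold higher on the sublingual and 136 on the parotid array, in place of 332 and 314. Genes well above background on both arrays gave 203 on the parotid array, and no bound with all probes gave 678. Counting probes in place of genes gave 618 and 637, and names by accession alone gave 203 and 176. At 2-fold there were 1370 and 1349 genes and at 10-fold 96 and 122. The median difference was 0.33 with median centring. All other settings kept these counts within 1.5 times, and none of the 80 genes named by rank changed sign. Of the 80 genes named by rank, 78 passed 4-fold the same way under every setting tried; Mtus1 and Cox8b did not. Medians of 9 of the 56 lists changed sign under at least 1 setting, each with a median between -0.11 and 0.47. With no bound and all probes, medians shrank over 1.5 times, from 1.09 to 0.69 for O-glycan core enzymes, from -1.12 to -0.71 for innate defence, from 1.05 to 0.61 for keratins, from -1.33 to -0.75 for B and plasma cells, from -0.98 to -0.57 for mast cells and from 0.91 to 0.21 for skeletal muscle. Normexp correction shrank further marker medians over 1.5 times. They went from -1.15 to -0.57 for T and NK cells, -1.04 to -0.61 for endothelium and -0.95 to -0.56 for adipocytes. Macrophages and dendritic cells went from -0.87 to -0.54, dividing cells from -0.88 to -0.56 and granular ducts from -0.86 to -0.49. Median centring moved matrix genes from -0.54 to -0.29, protease inhibitors from -0.26 to -0.02 and the SOX and forkhead list from -0.24 to -0.001. The SMR, VCS and casein locus median of -4.20 came as near to no difference as -0.81 over the settings. Where the 9 genes with probes at least 2-fold apart in opposite directions are concerned, Anpep was past 4-fold by its brightest probe (-2.06) and at 1.63 by another. Signal near background limits the largest folds: Muc19 ranged from 10.90 to 13.90 and Obp2b from -10.15 to -5.92 over the settings.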

Other observations

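Probes with no matched gene held further large differences. Of 10260 that could be compared, 226 (2.20%) passed 4-fold toward the sublingual and 271 (2.64%) toward the parotid gland. A probe described in the files as carbonic anhydrase VI, the secreted salivary form, was at 10.08 on the parotid array and 0.15 on the sublingual array, 973-fold apart. A probe described as a relative of the cargo receptor ERGIC-53 was at 9.11 on the sublingual array against -0.64 (865-fold). Both probes of an ovostatin-like protease inhibitor were higher on the sublingual array, 286-fold and 171-fold. A probe described as like Galnt12, an enzyme that starts O-glycans, was at 3.41 against -3.13 (93.1-fold), whereas the probe matched to Galnt12 itself was not well above background on either array.

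Tff3, a trefoil peptide usually released with mucin, was not well above background on the parotid array (-5.41) or the sublingual array (-5.75), and was at 0.93 on the submandibular-labelled array. Plxnc1, a semaphorin receptor, was at 2.83 on the sublingual array, 0.08 on the parotid array and -1.08 on the submandibular-labelled array. Its ligand Sema7a was at 3.97 on the parotid array and -2.49 on the sublingual array.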
